A study of Homo sapiens with 15 samples.

Results

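The senescence barrier and immortalisation loci are 8 genes, taken from a fixed list: TERT, CDKN2A, CDKN2B, CDKN1A, CDKN1C, MDM2, RB1 and MYC. They were examined among 19643 genes that had a base under a peak in their gene body or the 20 kb on each side. The same windows held 115 of the 295008 consensus regions, that is merged peak regions with a peak of at least 2 libraries. Chromatin accessibility was measured by ATAC-seq, in which the transposase Tn5 cuts and tags open DNA, in RPTEC, a renal proximal tubule epithelial cell line immortalised with hTERT and kept under G418 selection for it. The 15 libraries form 5 groups of 3. WT cells carry intact SETD2, the enzyme that trimethylates histone H3 at lysine 36, KO1 and KO2 are single clones in which SETD2 was knocked out with CRISPR, and Rescue1 and Rescue2 are single blasticidin-selected clones of knockout cells given a FLAG-tagged SETD2 by lentivirus. All 5 groups therefore share the hTERT transgene, and the deposited names of both rescue clones carry the clone name of KO2. No label says that libraries of a group came from separate cultures, so p-values measure the spread between libraries, which may be technical. Each knockout and rescue group is a single clone, so a difference by SETD2 status cannot be told apart from a difference between clones.

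Primary epithelial cells stop dividing after a limited number of divisions. Shortened telomeres start a damage response that induces CDKN1A (p21), and prolonged culture induces CDKN2A, which encodes p16 and, from a separate first exon, p14ARF. p16 and its neighbour CDKN2B (p15) inhibit CDK4 and CDK6 and so keep RB1 active, p14ARF restrains MDM2, a ubiquitin ligase, and CDKN1C (p57) inhibits cyclin-dependent kinases. TERT, the catalytic subunit of telomerase, removes the telomere limit, and MYC is an activator of the endogenous TERT gene.

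The sequences that carry the results are printed 5′ to 3′ on the strand of the listed gene, from hg38. In both TERT runs, chr5:1282399-1282654 and chr5:1254338-1254535 on the minus strand, capitals mark the coding exon and the 30 bases on either side are intron.
TERT exon 3: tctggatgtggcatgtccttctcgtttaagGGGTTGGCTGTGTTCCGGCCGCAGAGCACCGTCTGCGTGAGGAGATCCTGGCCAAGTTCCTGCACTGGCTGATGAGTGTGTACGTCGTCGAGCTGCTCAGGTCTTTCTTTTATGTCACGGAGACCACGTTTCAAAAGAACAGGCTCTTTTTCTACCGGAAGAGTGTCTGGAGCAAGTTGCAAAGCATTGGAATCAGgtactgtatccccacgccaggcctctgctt
TERT exon 15: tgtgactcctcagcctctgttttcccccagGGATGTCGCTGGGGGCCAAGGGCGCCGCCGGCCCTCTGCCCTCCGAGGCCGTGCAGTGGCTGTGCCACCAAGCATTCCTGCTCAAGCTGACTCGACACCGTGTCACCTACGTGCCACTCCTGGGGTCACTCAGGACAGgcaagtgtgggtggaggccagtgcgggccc
The next pair lies just upstream of the p16 start at chr9:21974868-21975107 and of the CDKN2B start at chr9:22009316-22009555, both on the minus strand. Only the first lost its peak in all knockout libraries. Capitals mark a GC box, GGGCGG or its complement, CCGCCC.
CDKN2A upstream of the p16 start: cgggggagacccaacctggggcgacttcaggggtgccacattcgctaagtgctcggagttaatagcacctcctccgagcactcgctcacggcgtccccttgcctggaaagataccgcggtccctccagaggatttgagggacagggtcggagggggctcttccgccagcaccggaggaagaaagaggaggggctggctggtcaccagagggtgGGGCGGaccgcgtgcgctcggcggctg
CDKN2B upstream of the start: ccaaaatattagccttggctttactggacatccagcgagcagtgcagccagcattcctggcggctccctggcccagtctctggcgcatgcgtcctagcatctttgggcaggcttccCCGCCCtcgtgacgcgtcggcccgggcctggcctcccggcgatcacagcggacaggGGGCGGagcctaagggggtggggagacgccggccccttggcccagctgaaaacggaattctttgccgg
In the following runs, capitals mark the bases under a peak in every library that had one. They are an intron of CDKN2B-AS1 (chr9:22026739-22027038, minus strand), where KO1 peaks resumed, and a distal RB1 region (chr13:48542845-48543078, plus strand) without a KO peak. The minus strand is that of CDKN2B, and not that of CDKN2B-AS1, which runs antisense to it.
CDKN2B-AS1 intron region: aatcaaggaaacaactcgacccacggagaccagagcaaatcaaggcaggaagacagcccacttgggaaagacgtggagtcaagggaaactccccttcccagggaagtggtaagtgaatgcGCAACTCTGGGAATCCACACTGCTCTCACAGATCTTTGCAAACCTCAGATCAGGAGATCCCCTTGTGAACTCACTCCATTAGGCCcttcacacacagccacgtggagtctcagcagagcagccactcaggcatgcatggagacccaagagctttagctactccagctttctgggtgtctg
RB1 distal region: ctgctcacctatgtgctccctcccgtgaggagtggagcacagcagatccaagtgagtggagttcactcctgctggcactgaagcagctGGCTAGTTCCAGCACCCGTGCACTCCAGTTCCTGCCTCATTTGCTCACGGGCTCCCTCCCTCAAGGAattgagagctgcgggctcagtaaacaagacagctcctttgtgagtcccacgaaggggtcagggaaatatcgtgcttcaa

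The lists held 197527 to 266011 peaks per library, covering 49.4 to 65.2 Mb of chromosomes 1 to 22, X and Y. The total length did not differ beyond the spread of the libraries between KO and WT (exact permutation p = 0.119) or rescue and KO (exact permutation p = 0.342). Of the proximal tubule markers examined, 4 of 10 had a peak within 1000 bp of the start in all 15 libraries (PAX8, GGT1 and ANPEP among them) and 4 had none in any library (HNF4A, CUBN, SLC34A1 and AQP1). Of the epithelial markers, 4 of 5 had one in all 15 and CDH1 in 4 libraries, 3 of them WT. All 15 libraries also had one at 1 of 4 endothelial markers (CDH5) and 2 of 4 fibroblast markers (PDGFRB and COL1A1), and none of the 4 leukocyte markers had one in any library. Coding bases of SETD2 under peaks numbered 412 to 440 in WT, 475 to 693 in KO and 606 to 1069 in rescue libraries, and peaks cannot show whether the protein is made.

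TERT, CDKN2A and CDKN2B had an unadjusted p under 0.05 for the number of bases under peaks in at least 1 comparison, and the other 5 loci in neither. After adjustment, CDKN2B passed in neither comparison. TERT had more bases under peaks in KO than in WT libraries and fewer in rescue than in KO libraries, whereas CDKN2A and CDKN2B had fewer in KO than in WT. Each library's value is the count of bases under its peaks in the gene and the 20 kb on each side, and groups were compared with an exact two-sided permutation test, adjusted by Benjamini-Hochberg over all genes. Between KO and WT these 3 loci of 8 reached the smallest unadjusted exact permutation p that 6 against 3 libraries allow, 0.0238. An unadjusted p under 0.05 was reached by 32.7% of all genes, and 0 genes passed after adjustment (adjusted p of the 3 loci = 0.0944). Between rescue and KO, TERT and CDKN2A passed after adjustment (adjusted exact permutation p = 0.0155), as did 27.5% of all genes.

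**Figure D1:**
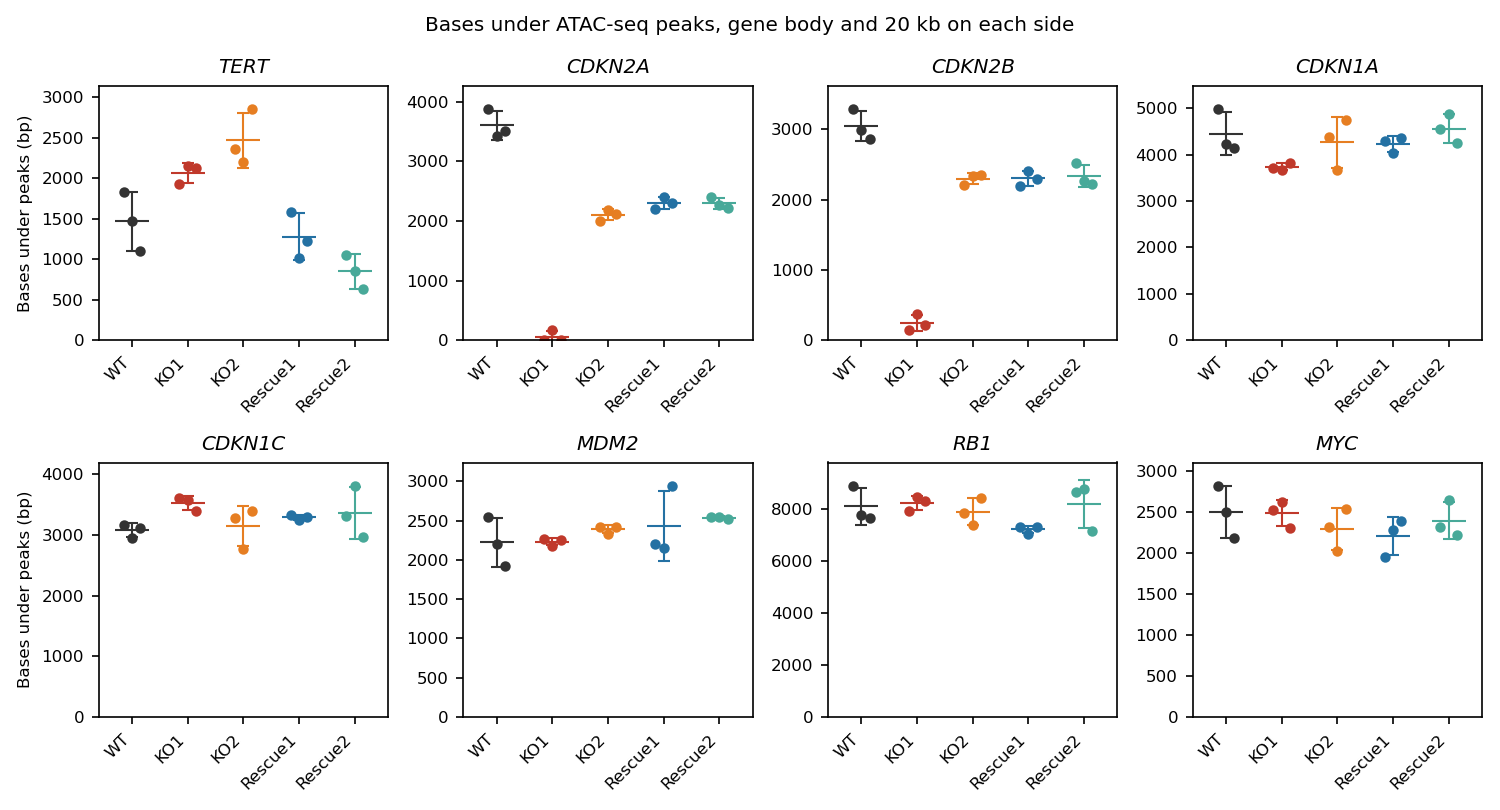
Bases under peaks (vertical axis, bp, from 0) in the gene and the 20 kb on each side for each of the 8 loci and 5 groups; points are libraries, and horizontal marks with bars are the mean and SD of 3. The TERT points of KO1 and KO2 (1928 to 2852) lie above those of WT and of both rescue clones, and at CDKN2A the KO1 points lie at 0 to 176.

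CDKN2A lost its p16 start peak in both knockout clones and kept none in the rescue clones. Bases under peaks at the locus were 3876, 3430 and 3507 in the WT libraries, 0, 176 and 0 in KO1, 2001, 2187 and 2126 in KO2, 2197, 2409 and 2294 in Rescue1, and 2396, 2263 and 2223 in Rescue2. The KO1 values are far below all others, and the KO2 and rescue values are below WT without overlap. Over all genes, KO1 lay below WT without overlap at 21.7%, KO2 below WT at 15.9%, KO1 below KO2 at 11.7% and rescue below WT at 2.91%, and both KO clones together at 11.9%. The KO mean was 1082 ± 1124 (SD, n = 6) against 3604 ± 238 in WT (SD, n = 3), and the large SD reflects the gap between the clones. Set against KO2 alone, the rescue mean of 2297 ± 88.3 (SD, n = 6) was only 192 bases above the KO2 mean of 2105 ± 94.8 (SD, n = 3), again without overlap (exact permutation p = 0.0238, adjusted 0.129), as for 14.4% of all genes. The difference between rescue and all KO libraries no longer passed within the gene body alone (exact permutation p = 0.0584) or with the 150000 strongest peaks of each library (exact permutation p = 0.0887).

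The region over the p16 start, chr9:21974730-21975358, which holds the first coding exon of p16 and its 5′ UTR, had a peak in all 3 WT libraries and in 0 of the 12 others. In WT it was a strong peak, at the 77.2, 71.8 and 81.4 percentile of its library by fold enrichment over local background. A second region, centred at -732 bp from the start, chr9:21975496-21975681, showed the same pattern with weak peaks, at the 9.54, 5.54 and 1.30 percentile. Both counted as lost in KO, meaning a peak in all WT and no KO library, and neither came back in rescue. Both rescue clones carry the KO2 name, so a state inherited from KO2 cannot be told apart from a lack of response to SETD2. Across the genome, 1.03% of consensus regions had a peak in all 3 WT libraries and in none of the 12 others. A region inside the p16 transcript, chr9:21974487-21974668, had a peak in 2 WT libraries and no other. The region over the p14ARF start, chr9:21994509-21996076, which also holds the start of the antisense RNA CDKN2B-AS1, behaved otherwise, with a peak in all WT, KO2 and rescue libraries and in no KO1 library (0.428% of all regions). Between the 2 starts, chr9:21984214-21984410 had a peak in 3 WT, 0 KO1, 1 KO2, 0 Rescue1 and 1 Rescue2 libraries, and chr9:21986870-21987038 in 3, 0, 2, 3 and 3.

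The absence of peaks in KO1 reached far beyond CDKN2A. The nearest regions with a peak in all 3 KO1 libraries bound a stretch of 520 kb, chr9:21507156-22026738, whose protein-coding genes are CDKN2A, CDKN2B and MTAP, a methionine salvage gene. It starts 468 kb from the p16 start on the MTAP side and ends 51.9 kb beyond it. Inside it, KO1 libraries had 0, 552 and 117 bases under peaks, compared with 16849 to 19551 in WT, 16407 to 18024 in KO2 and 15986 to 19048 in the rescue libraries. Of its 78 consensus regions, 30 had a peak in all WT, KO2 and rescue libraries, and the KO1 libraries had a peak in 0, 3 and 1. In the flank of equal length on the MTAP side, KO1 had 9811 to 11577 bases under peaks and WT 7908 to 9403, and in the other flank KO1 had 16554 to 17918 and WT 15360 to 18434, so KO1 was not below WT on either side of the stretch. Among the 71438 stretches of the genome bounded in the same way for KO1, none held more such regions, and the next highest count was 10. Over the MTAP gene itself, KO1 had 0, 319 and 117 bases under peaks, and all other libraries had 4956 to 6506. The lists hold no reads, so absent DNA and inaccessible DNA cannot be told apart. This stretch was delimited after its values had been seen.

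**Figure D2:**
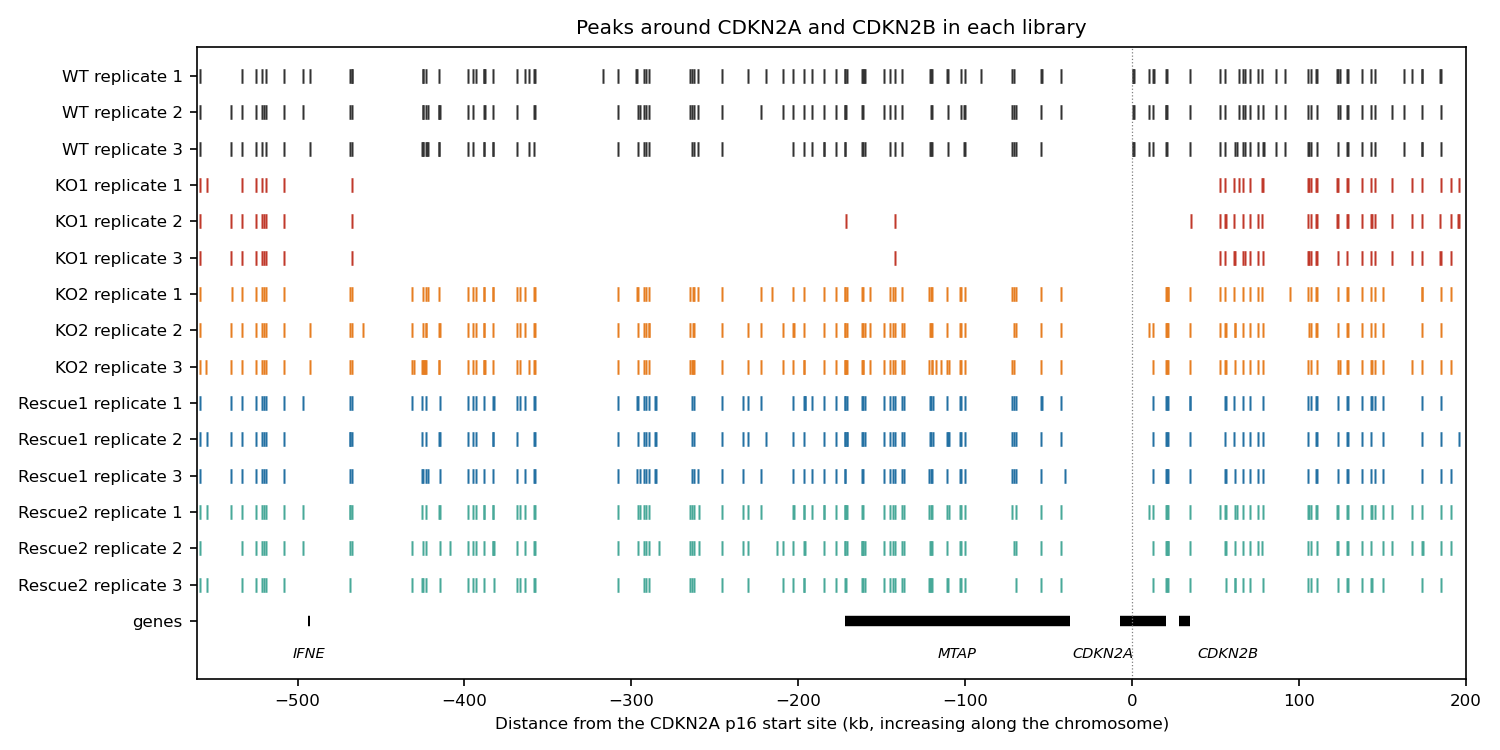
Peaks of each of the 15 libraries (rows, coloured by group) against the distance from the p16 start in kb; black bars at the bottom are genes, and bars of peaks are drawn at a minimum width. KO1 rows are nearly empty from 468 kb before to 51.9 kb beyond the start, and WT rows alone show marks at the start itself.

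A shorter stretch around the p16 start held few peaks in KO2 and both rescue clones. The nearest regions with a peak in all KO2, Rescue1 and Rescue2 libraries lie 74.5 kb apart (chr9:21919982-21994508), and the 3 WT libraries all had a peak in 4 of the 7 consensus regions between them. Of 69459 stretches of the genome bounded in the same way, 315 held more such regions. KO2 libraries had 155 to 289 bases under peaks in the stretch and rescue libraries 184 to 394, compared with 1143 to 1705 in WT. It was not empty, since chr9:21986870-21987038 inside it had a peak in 2 KO2, 3 Rescue1 and 3 Rescue2 libraries. This stretch too was delimited after its values had been seen.

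CDKN2B shared most of this pattern, since its window overlaps that of CDKN2A. Its libraries had 3286, 2992 and 2865 bases under peaks in WT, 141, 368 and 219 in KO1, 2214, 2337 and 2346 in KO2, 2197, 2409 and 2294 in Rescue1 and 2515, 2263 and 2223 in Rescue2. KO1 is again apart, and rescue and KO2 overlap (exact permutation p = 0.881), while pooled KO and rescue libraries did not pass the test (exact permutation p = 0.0801, adjusted 0.169). The region over the CDKN2B start, chr9:22008651-22009741, had a peak in all libraries but 2 of KO1. The single KO1 peak lay at the 25.6 percentile of its library, and the start peaks of the other groups between the 68.1 and the 84.1 percentile. At the far side of the locus, the CDKN2B-AS1 intron region chr9:22026739-22027100 had a peak in all WT, KO1 and KO2 libraries but in 0 of Rescue1 and 1 of Rescue2 (Fisher exact p = 0.0152, adjusted 0.286).

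TERT peaks lay on its exons, not at its promoter. No library had a peak that reached upstream of the annotated start at position 1295068 of chromosome 5, and 125 of the 128 peaks called inside the gene overlapped an exon, each of them just 1. Exons make up 9.63% of the gene and held 97.4% of the bases under its peaks. No peak on an exon extended more than 43 bp beyond that exon's edge. The exon 2 region, chr5:1293312-1294669, runs within 3 bp of the exon, chr5:1293313-1294666, at both ends and had a peak in all 15 libraries. Exon 3 had one in 12 libraries, all except Rescue2, and the union of these peaks, chr5:1282452-1282625, lies within the exon printed above in capitals but for 1 bp. Exons 15 and 16 had a peak in 13 and 14 libraries, exon 6 in 11, exon 5 in 8, exon 1 in 7, exon 4 in 6 and exon 14 in 5. Exons 7, 8 and 9 had one in 3 libraries each, exon 8 in the 3 KO2 libraries alone, and exon 11 in 1. The 3 coding exons without a peak, 10, 12 and 13, measure 72, 127 and 62 bp. Outside the exons, an intergenic region centred 48017 bp downstream of the start, chr5:1246938-1247164, had a peak in 3 WT, 0 KO1, 1 KO2, 2 Rescue1 and 0 Rescue2 libraries, and an intron region, chr5:1268780-1268882, in 1 library of each rescue clone.

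This arrangement was rare. Among 7092 protein-coding genes with at least 10 coding exons and a peak more than 1000 bp from the start, the median gene had 1.67% of such peak bases in exons. TERT had 96.3%, a value that 1.64% of these genes reached. TERT also had 32.5% of its exon bases under peaks, averaged over libraries, against a median of 0.338%. POLDIP2 was the one other gene that was as high in both, named after its values were seen. An hTERT cDNA holds the exons without the introns, and peaks from such a copy and from the endogenous gene cannot be told apart in the lists.

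**Figure D3:**
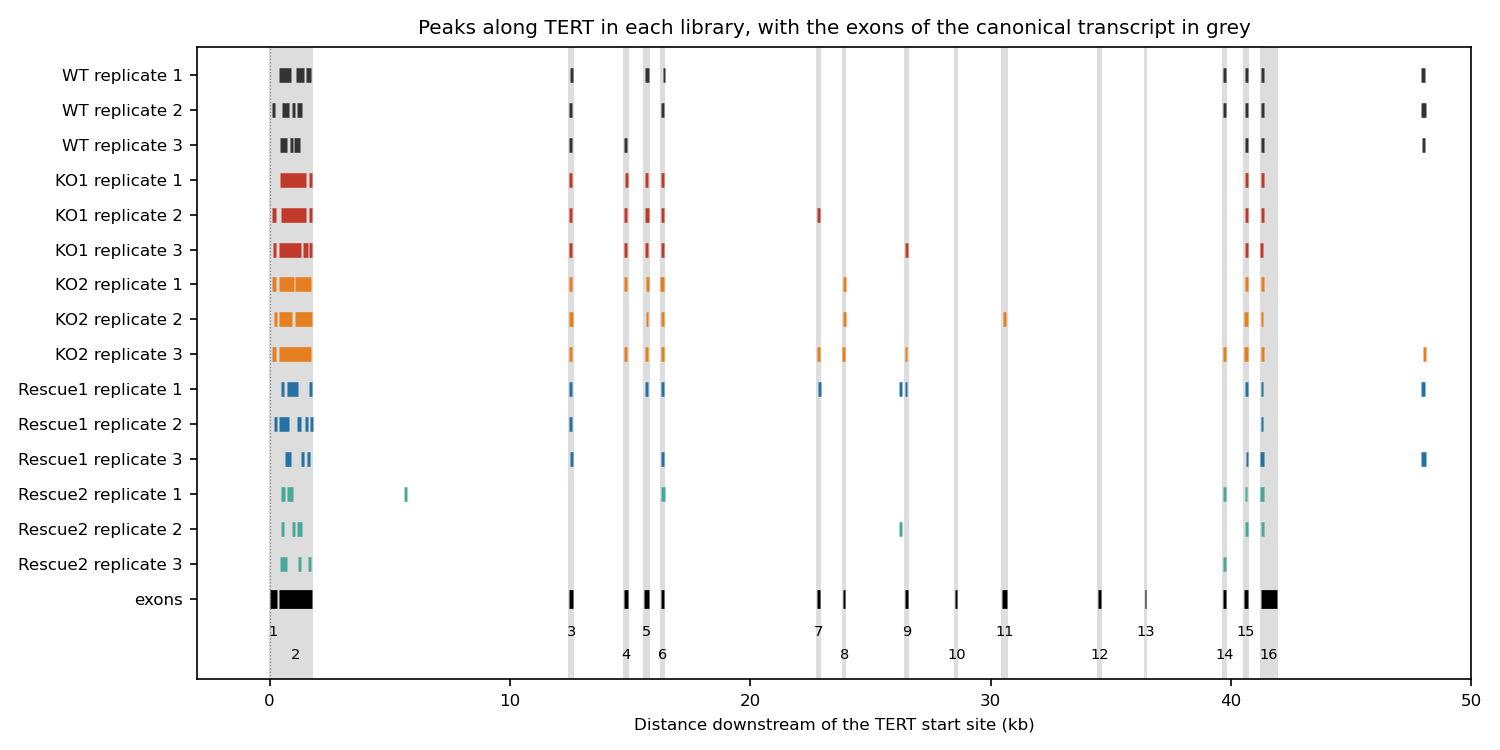
Peaks along TERT in each library (rows, coloured by group) against the distance downstream of its start in kb; grey bands and black bars are exons, numbered below, and peaks are drawn at a minimum width. Peaks fall in the grey bands, no row has a peak upstream of 0, and the 6 KO rows carry more exon peaks than the Rescue2 rows.

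TERT exons had more bases under peaks in knockout cells than in WT or rescue cells. Coding bases under peaks numbered 1654, 1223 and 981 in WT, 1923, 2111 and 2091 in KO1, 2278, 2171 and 2622 in KO2, 1319, 1017 and 945 in Rescue1 and 878, 713 and 633 in Rescue2. Every KO library lies above every WT and every rescue library, and Rescue2 lies lowest. The mean was 2199 ± 237 in KO (SD, n = 6) and 1286 ± 341 in WT (SD, n = 3, exact permutation p = 0.0238), and 918 ± 243 in rescue (SD, n = 6, exact permutation p = 0.00216 against KO). Rescue and WT overlapped (exact permutation p = 0.143). Divided by the total length under peaks, the KO mean remained above both, with 39.3 ± 2.66 coding bases per Mb (SD, n = 6), against 24.7 ± 4.80 in WT (SD, n = 3) and 16 ± 5.01 in rescue (SD, n = 6), at the same exact permutation p-values, and by this measure rescue was also below WT, with overlap (exact permutation p = 0.0476). Coding exons with a peak numbered 7, 7 and 5 in WT, 7, 9 and 9 in KO1, 9, 9 and 12 in KO2, 8, 4 and 5 in Rescue1 and 5, 3 and 2 in Rescue2. By this count KO and WT overlapped (exact permutation p = 0.0714), and rescue was below KO (exact permutation p = 0.00433).

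The exon 2 peak also ranked higher within its library in KO. Ranked by fold enrichment, it stood at the 41.7, 36.7 and 42.8 percentile in WT, 46.9, 51.0 and 44 in KO1, 57.5, 50.8 and 53.1 in KO2, 24.3, 20.9 and 8.82 in Rescue1 and 33.6, 39.0 and 27.0 in Rescue2. KO libraries lie above all others, WT above Rescue1 and overlapping Rescue2. The differences of KO from WT and of rescue from KO reached the smallest exact permutation p of their design, 0.0238 and 0.00216. Adjusted over all regions with a peak in all libraries compared, the first did not pass (adjusted p = 0.114 by the exact permutation test, with 28.1% of regions under an unadjusted 0.05 and 0 after adjustment), and the second did (adjusted p = 0.0288 by the exact permutation test, as for 13.2% of regions). Over the whole locus, with the flanks, TERT had 1834, 1471 and 1107 bases under peaks in WT, 1928 to 2852 in KO and 636 to 1586 in rescue libraries, a KO to WT ratio of means of 1.54 and a rescue to KO ratio of 0.469. For scale, KO libraries lay above WT without overlap at 13.3% of all genes, and rescue below KO without overlap at 2.83%.

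CDKN1A and CDKN1C, the p21 and p57 inhibitors, kept most of their peaks in all groups. CDKN1A had 4144 to 4980 bases under peaks in WT, 3675 to 4755 in KO and 4040 to 4872 in rescue libraries (exact permutation p = 0.262 and 0.113). The KO1 libraries alone had 3675 to 3825, below WT without overlap, as for 21.7% of all genes. The KO mean minus the WT mean was -450 bases over the locus and 352 bases within the gene body alone (exact permutation p = 0.0238). Of its 15 consensus regions, 9 had a peak in all 15 libraries, among them the region over its start, chr6:36678341-36678862, which also holds the start of the noncoding RNA DINOL. Also among the 9, chr6:36687762-36689008, in the flank beyond the gene end, had 890 to 1195 bases under peaks in WT libraries. KO libraries had 99 to 616 there and rescue libraries 106 to 493, both below WT without overlap. The share of all regions with such a difference is not given. An upstream region centred at -11464 bp from the start, chr6:36666903-36667596, was occupied throughout and strong, at the 90.3, 95.5 and 95.8 percentile in WT, 92.6 to 95.8 in KO and 86.9 to 92.8 in rescue. The mean difference of rescue minus KO was -4.06 percentile points (exact permutation p = 0.00649, adjusted 0.0490, a threshold of 0.05 that 13.2% of the 118644 regions with a peak in all those libraries passed). A region centred at -8363 bp, chr6:36670279-36670422, had a peak in the 3 Rescue2 libraries alone, as 0.447% of regions did. Just downstream of the start, chr6:36678983-36679197 had a peak in 0 WT, 2 KO1, 3 KO2, 1 Rescue1 and 2 Rescue2 libraries, and chr6:36694747-36694981, centred 16150 bp downstream, in 2, 0, 2, 3 and 3.

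At CDKN1C the libraries had 2955 to 3169 bases under peaks in WT, 2771 to 3600 in KO and 2960 to 3812 in rescue (exact permutation p = 0.214 and 0.976). Of its 10 regions, 5 had a peak in all 15 libraries, including the start, chr11:2884953-2886135, and the start of the neighbouring transporter gene SLC22A18, chr11:2901900-2902856. The regions with the largest differences were KCNQ1DN sequences, chr11:2870633-2870808, with a peak in 2 WT, 1 KO1, 2 KO2, 3 Rescue1 and 3 Rescue2 libraries, and chr11:2871420-2871547, with 2, 0, 1, 0 and 0. An intergenic region, chr11:2876377-2876535, had 0, 2, 1, 0 and 2.

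MDM2 gained 1 region in knockout cells that remained after rescue. Bases under peaks did not pass the test, with 1922 to 2547 in WT, 2179 to 2422 in KO and 2149 to 2947 in rescue libraries (exact permutation p = 0.548 and 0.199). The region centred at -6423 bp from the start, chr12:68801650-68801858, had a peak in 0 of 3 WT libraries and in all 12 others, at the 62.7 to 82.1 percentile in KO and 81.1 to 94.0 in rescue (exact permutation p = 0.00649, adjusted over all regions 0.0490). Regions of this pattern made up 2.14% of the consensus, and the gain in KO did not pass after adjustment (Fisher exact p = 0.0119, adjusted 0.164). That unadjusted p is the smallest these libraries allow. The percentile difference between rescue and KO passed an adjusted 0.05, as for 13.2% of the 118644 regions with a peak in all those libraries. The middle 30 of the bases under a peak in all 12 libraries occur 2618 times in the reference on either strand, and the part of misplaced reads was not tested. The start region, chr12:68807384-68809108, had a peak in all 15 libraries. Inside the gene, chr12:68825592-68825870 had a peak in 0 WT, 1 KO1, 3 KO2, 3 Rescue1 and 3 Rescue2 libraries. An exon 11 UTR region, chr12:68844801-68844985, had 0, 0, 0, 1 and 3, and an upstream region, chr12:68805714-68805838, 0, 0, 0, 1 and 2.

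RB1, the longest locus, had 7651 to 8908 bases under peaks in WT, 7409 to 8462 in KO and 7059 to 8789 in rescue libraries (exact permutation p = 0.881 and 0.323). Per Mb under peaks, RB1 was lower in KO than in WT (unadjusted exact permutation p = 0.0238) and lower in rescue than in KO (unadjusted exact permutation p = 0.00216). The mean total under peaks was 4.19 Mb larger in KO than in WT and 2.42 Mb larger in rescue than in KO. A locus with unchanged bases is therefore lower by this measure, and the share of all genes that pass by it is not given. Of its 37 regions, 16 had a peak in all 15 libraries, including the start shared with the divergent RNA RB1-DT, chr13:48303048-48304315, and the starts of the nested LPAR6 gene, chr13:48413048-48413406, and of RCBTB2, chr13:48532192-48533358. A region centred 239211 bp downstream, chr13:48542845-48543078, within the gene but beyond its canonical transcript, was lost in KO. It had a peak in all WT and Rescue2 libraries, at the 52.1 to 63.2 and the 13.5 to 36.0 percentile, and in no KO or Rescue1 library, a pattern of 0.0902% of regions. The middle 30 of its bases printed in capitals occur 3 times in the reference, and the part of misplaced reads was not tested. In the other direction, the RB1-DT region chr13:48296574-48296821 had a peak in 0 WT, 3 KO1, 1 KO2, 0 Rescue1 and 1 Rescue2 libraries, and chr13:48585509-48585764 in 0, 3, 2, 0 and 1. An intron region, chr13:48334613-48334775, had 3, 2, 1, 2 and 2, and the LINC00462 start, chr13:48590576-48590844, 2, 0, 1, 0 and 0.

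MYC had 2174 to 2816 bases under peaks in WT, 2017 to 2614 in KO and 1944 to 2643 in rescue libraries (exact permutation p = 0.524 and 0.528). The start region, chr8:127735584-127736522, had a peak in all 15, as did a second start in intron 1, chr8:127737367-127738008. A region centred at -12800 bp in the noncoding gene CASC11, chr8:127723201-127723661, had a peak in all WT and KO libraries and in no rescue library, as 0.209% of regions did. It was at the 16.3 to 59.5 percentile in WT and the 57.7 to 78.3 percentile in KO, the latter being the higher (exact permutation p = 0.0476, adjusted 0.169), and 28.1% of regions with a peak in all those libraries had an unadjusted p under 0.05. Farther upstream, chr8:127719919-127720160 had a peak in 0 WT, 2 KO1, 3 KO2, 0 Rescue1 and 1 Rescue2 libraries. In the 3′ UTR, chr8:127742286-127742531 had a peak in 3 WT, 1 KO1, 0 KO2, 3 Rescue1 and 3 Rescue2 libraries, and chr8:127742035-127742224 in 2 WT libraries and no other. In coding exon 2, chr8:127738909-127739040, which holds an annotated CASC11 start, had 0, 1, 2, 0 and 0.

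**Figure D4:**
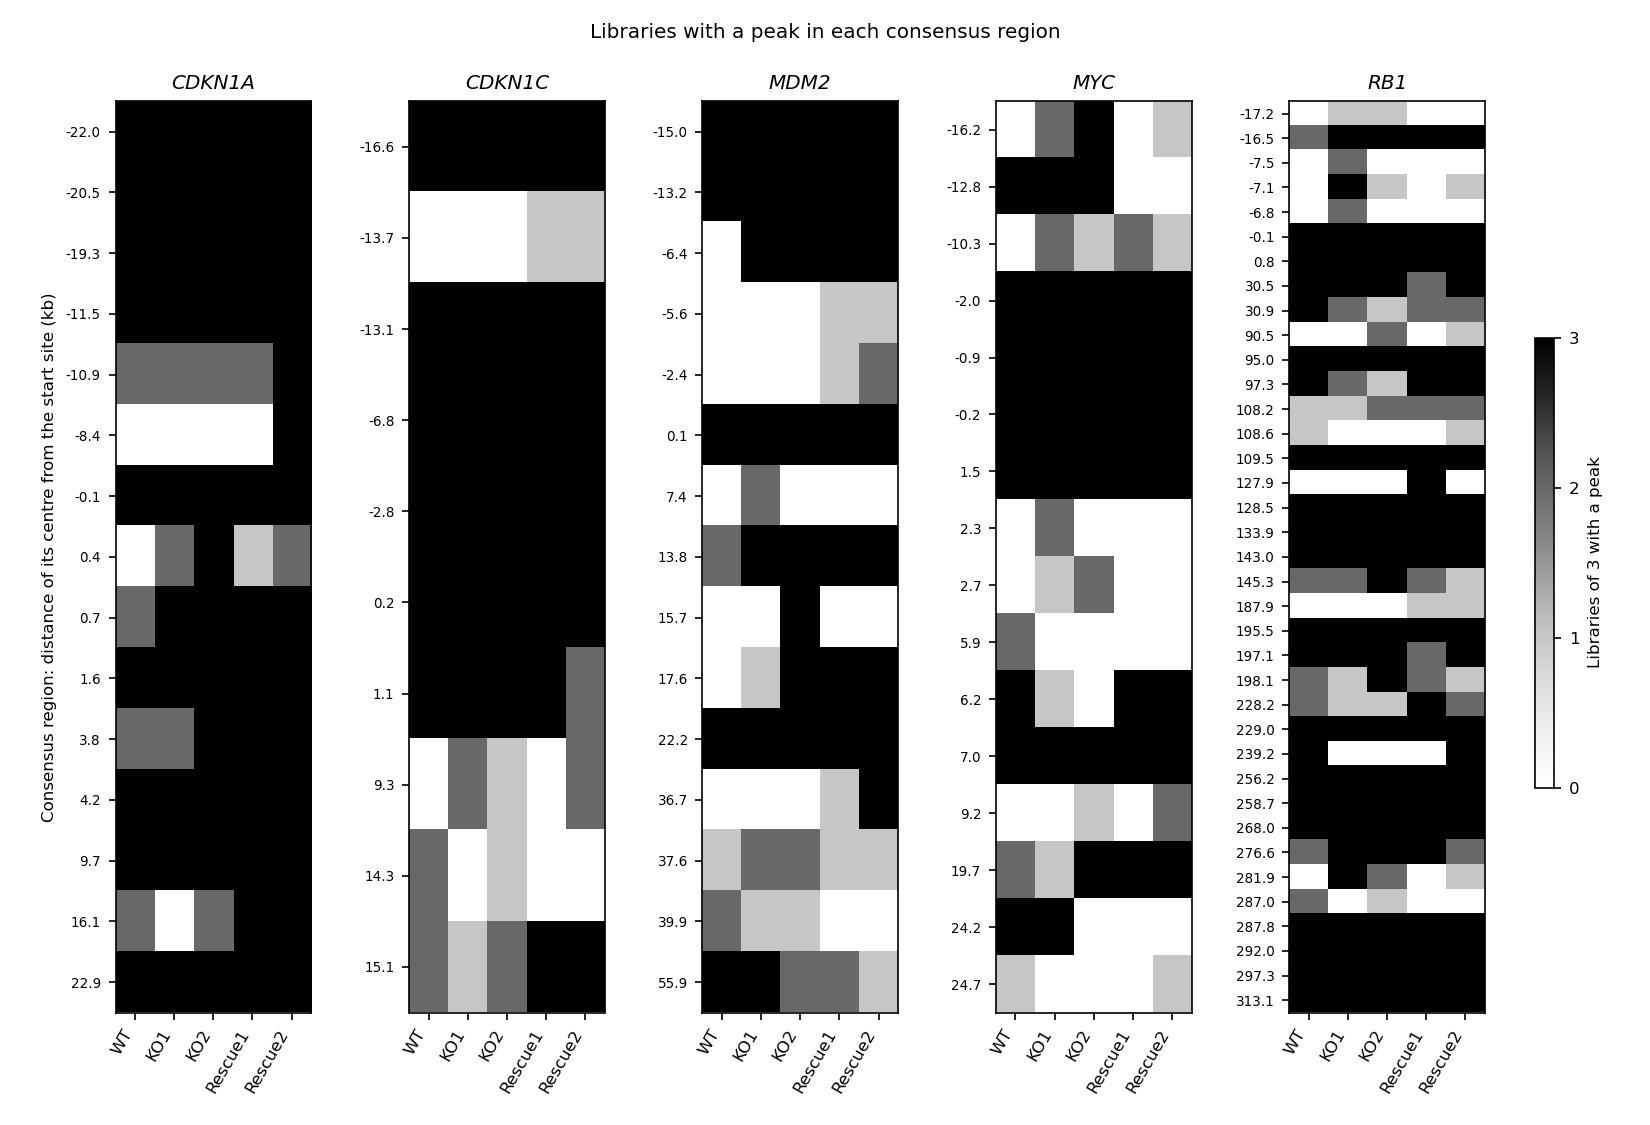
Number of the 3 libraries of each group with a peak (grey scale, white 0 to black 3) in every consensus region of CDKN1A, CDKN1C, MDM2, MYC and RB1, ordered by the distance of the region's centre from the start in kb. The region over the canonical start of each listed gene is black in all 5 groups. The MDM2 region at -6423 bp is white in WT alone, and the MYC region at -12800 bp is white in both rescue clones.

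Counted over all 8 loci, each region once, 40 of 115 regions (34.8%) had a peak in all 15 libraries, close to the 35.6% of all consensus regions. Between KO and WT, 1 region was gained and 3 were lost (0.87% and 2.61%, against 4.79% and 2.48% of all regions), and between rescue and KO, 0 were gained and 1 was lost (against 0.91% and 1.24%). No region of the genome passed Fisher's exact test after adjustment (smallest adjusted p = 0.164 and 0.101), and in the 115 regions 10 and 5 had an unadjusted p under 0.05 (8.7% and 4.35%, against 10.8% and 5.29% of all regions). The unadjusted Fisher exact p cannot go below 0.0119 and 0.00216 with these libraries. Even regions present in all libraries of one group and none of the other therefore did not pass. With the rule relaxed to a peak in at least 2 in 3 libraries of one group and at most 1 in 3 of the other, 10 regions were gained and 15 lost in KO (8.70% and 13%, against 12.9% and 9.64%), and 5 were gained and 9 lost in rescue (4.35% and 7.83%, against 7.58% and 6.76%). By clone, KO1 against WT had 3 gained and 7 lost regions (7.06% and 4.8% of all regions) and KO2 against WT 6 and 5 (8.34% and 3.23%). Rescue against KO2 alone had 1 gained and 3 lost (1.17% and 2.3%), Rescue1 against KO 1 and 2 (1.8% and 2.73%), and Rescue2 against KO 3 and 3 (2.44% and 1.59%).

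The highest peaks near the starts of MDM2, RB1 and CDKN1A did not pass the test in either comparison. Those of TERT, CDKN1C and MYC had an unadjusted p under 0.05 in at least 1. The highest peak within 1000 bp of the start was compared as its percentile within its library, over 13876 genes with such a peak in all KO and WT libraries and 13813 in all rescue and KO libraries. At CDKN1C it stood at the 43.2, 49.7 and 37.1 percentile in WT and at 55.2 to 61.6 in KO, with no overlap (mean difference 14.2, exact permutation p = 0.0238, adjusted 0.191). At TERT the highest peak in this window is the exon peak, not a promoter peak, and it was likewise higher in KO (mean difference 19.3, exact permutation p = 0.0238, adjusted 0.191). An unadjusted p under 0.05 was reached by 18.4% of genes. Between rescue and KO, the TERT peak was lower by a mean of -25.9 points (exact permutation p = 0.00216, adjusted 0.0317, passed by 9.95% of genes). The highest peak near the MYC start stood at the 12.7 to 22.3 percentile in KO and at 17.3 to 32.3 in rescue (exact permutation p = 0.0346, adjusted 0.130, with 30.8% of genes under an unadjusted 0.05). In Rescue1 replicate 3 this peak, at 32.3, was that of a separate region centred at -940 bp. In the region over the MYC start itself, that library stood at 18.4, and rescue against KO did not pass (exact permutation p = 0.136, adjusted 0.304). The percentile over all libraries ran from 66.6 to 75.0 at MDM2, 73.3 to 85.1 at RB1 and 20.2 to 37.7 at CDKN1A. CDKN2A and CDKN2B were not tested, since no KO or rescue library had a peak at the CDKN2A start and only 1 of the 3 KO1 libraries had one at the CDKN2B start.

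**Figure D5:**
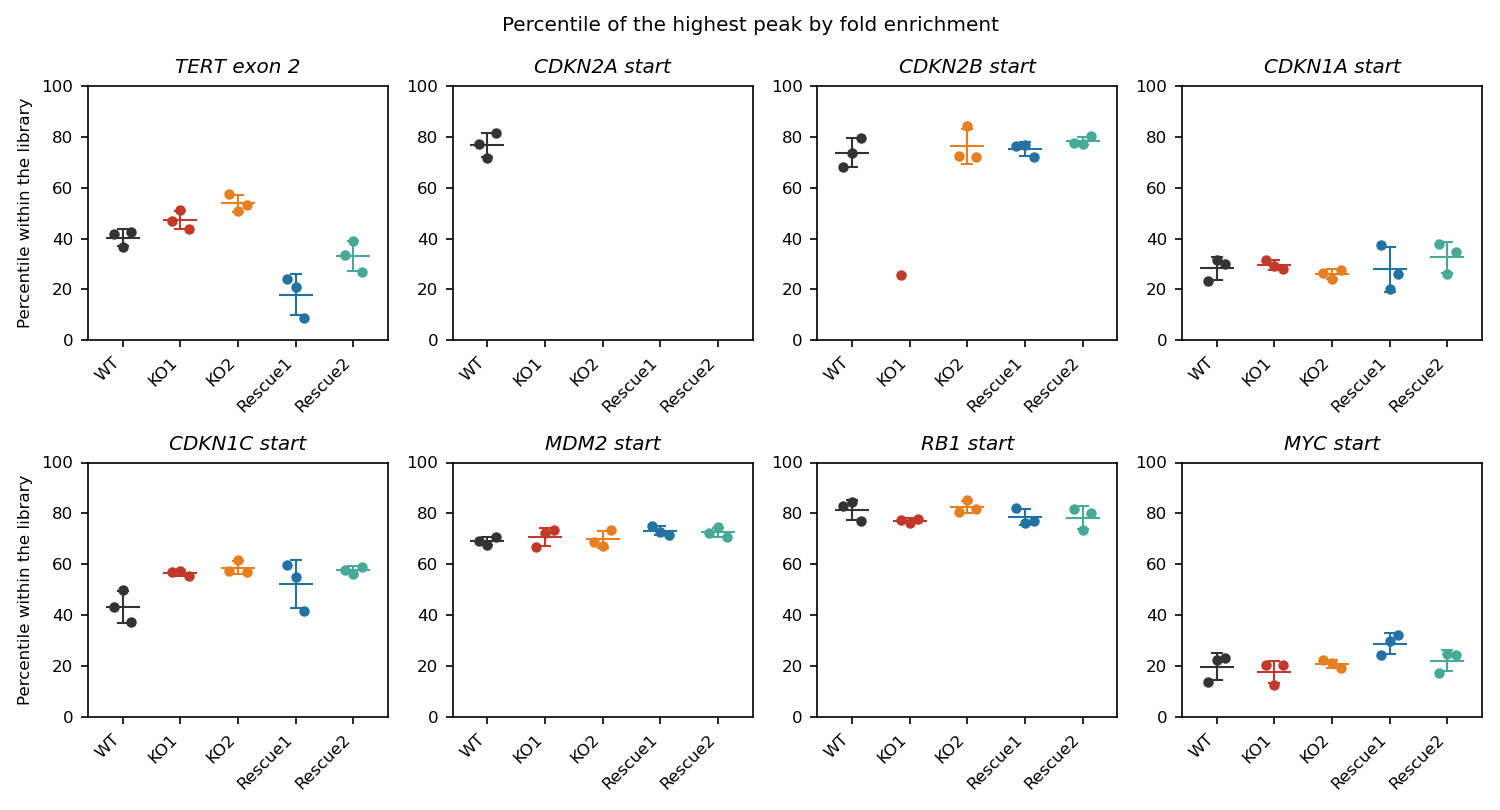
Percentile within the library (vertical axis, 0 to 100) of the highest peak by fold enrichment, for TERT exon 2 and within 1000 bp of the starts of the other 7 loci. Points are libraries, and horizontal marks with bars the mean and SD of 3. The CDKN2A start has points in WT alone, and TERT exon 2 stands at 44 to 57.5 in KO and at 8.82 to 39.0 in rescue.

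The pathways around these loci were followed through 51 other genes in 5 lists. Between KO and WT, 6 of the 51 were higher and 10 lower at an unadjusted exact permutation p under 0.05, near the 32.7% of all genes, and between rescue and KO 18 were higher and 3 lower, near the 41.4% of all genes. Of the 19643 genes with peaks, 3326 were higher and 3078 lower in KO, and 6718 were higher and 1399 lower in rescue. Higher counts thus outnumbered lower ones in rescue over all genes too. The median ratio of means was 0.990 for KO to WT and 1.07 for rescue to KO, against 0.993 and 1.08 over all genes. Of the 15 RB axis genes, 1 was higher and 5 lower in KO, and 5 were higher and 0 lower in rescue. CCNE1, the cyclin E1 that activates CDK2, had 1107 to 1747 bases under peaks in WT, 605 to 801 in KO and 1751 to 2177 in rescue libraries, so that KO lay below both without overlap (rescue against KO, adjusted exact permutation p = 0.0155), and rescue lay above KO without overlap at 11.1% of all genes. RBL1, the RB-related p107 (ratios 0.773 and 1.64), and CDK4, the kinase inhibited by p16 (0.663 and 1.35), also had the lowest mean in KO (adjusted exact permutation p = 0.0155 against rescue for both). Of the 8 telomere genes, 1 was higher and 1 lower in KO, and 4 were higher and 0 lower in rescue, among them TERF2IP, a shelterin subunit, with 1670 to 2594 bases in KO and 2914 to 5187 in rescue libraries. Of the 9 genes of the MYC network and Polycomb, 2 were higher and 2 lower in KO, and 2 were higher and 1 lower in rescue. MYCN, the neural MYC paralogue, had 282 to 351 bases in WT, 624 to 1032 in KO and 334 to 531 in rescue libraries. Of the 9 senescence secretome genes, 2 were higher and 0 lower in KO, and 3 were higher and 2 lower in rescue. CXCL8, the chemokine interleukin-8, had 2952 to 3808 bases in WT, 3429 to 4481 in KO and 2420 to 3158 in rescue libraries.

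Motifs were searched on both strands of the 300 bp around the median summit of each region. The E-box CACGTG, bound by MYC with MAX, was found in 8 of the 115 regions (6.96%, against 4.46% of all regions), the GC box GGGCGG in 30 (26.1%, against 11%), and the AP-1 site TGANTCA in 27 (23.5%, against 32.5%). The CTCF motif was found in 2 (1.74%, against 1.29%), and the E2F sites TTTGGCGC and TTTCGCGC in 0 (against 0.24%). Regions with an E-box include those of TERT exons 1, 6 and 8, whose 300 bp windows also take in sequence outside the exon. All regions include those far from genes and starts, so the shares are not compared with a like background.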

How the data were processed

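The authors aligned ATAC-seq reads to hg38 with BWA (0.7.17 per the labels) and called peaks with MACS2 2.2.7.1 in each library separately. Per library, the deposited list gives the peak interval, a whole-number score, the fold enrichment at the summit as a ratio, the −log10 p and −log10 q, and the summit. Lists hold no read counts, so read depth is unknown, and a region without a peak is below the calling threshold, not closed. Read counts from DiffBind (2.14.0 per the labels) were not used here. The series text speaks of duplicates, and the labels give 3 libraries per group.

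Peaks on chromosomes 1 to 22, X and Y sharing at least 1 bp were merged, and regions with peaks of at least 2 libraries were kept. A library occupied a region with at least 1 bp under its peaks. Loci were the GENCODE v44 genes with 20 kb on each side. Exact permutation tests were two-sided by doubling the smaller tail, and p-values were adjusted by Benjamini-Hochberg over all genes or regions. Fold enrichment was used only as a percentile within a library. Motifs and sequences came from hg38. Code was checked on simulated data (Python 3.11.15 with numpy 2.4.6, scipy 1.17.1, pandas 2.3.3 and matplotlib 3.10.9). Some genes, motifs and sequences examined are not reported here. Named regions were those over annotated starts, those gained or lost, TERT exon regions and up to 3 others per locus with the largest difference in occupied libraries. Named pathway genes came from the 10 with the largest ratio among the 15 at the smallest p. Members and lists were chosen with earlier results of these data known. The KO1 stretch, the shorter stretch of KO2 and the rescue clones, the percentile tests of regions, the TERT bases per Mb and by clone, and the region counts without CDKN2A and CDKN2B were added after seeing the data. Equal replicate numbers did not pair libraries: correlations of deviations from group means ran from -0.0570 to 0.0291 over 30 pairs. Alternatives were a −log10 q of at least 5, 150000 peaks per library, no flank, scaling by total length, other overlap and occupancy rules, single clones, each library left out and a replicate block.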

Additional observations from a re-analysis of the deposited data

Results flagged for a closer look

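Within the 6 KO or 6 rescue libraries, single libraries stood apart in 3 of the start peak percentiles, measured by the gap to the nearest library relative to the range of the group. At the CDKN1C start, KO2 replicate 2 was at the 61.6 percentile, above the other KO libraries, and Rescue1 replicate 3 was at the 41.6 percentile, below the other rescue libraries. At the MYC start, KO1 replicate 2 was at the 12.7 percentile, below the other KO libraries. The bases under peaks at the 8 loci held no such library. Chance gives such a value in about 1 in 20 groups, and 31 groups were examined.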

How the results depend on the processing

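Of the 8 loci, 3 had a p under 0.05 for bases under peaks between KO and WT; 5 had without the flanks, 5 per Mb under peaks, 0 with KO1 alone or KO2 alone, where no p can go below 0.1, 0 with the replicate block, whose smallest p is 0.0741, and 0 to 4 with 1 library left out. Between rescue and KO 2 had, and 2 to 4 with 1 library left out, the 4 being reached without KO2 replicate 3. Of all genes, 32.7% between KO and WT and 41.4% between rescue and KO had such a p in the main setting. Shares under the other settings are not given, so those counts cannot be set against all genes. The CDKN1A difference between KO and WT turned from -450 to 352 bases without the flanks (exact permutation p = 0.0238).

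Regions gained in KO numbered 1, but 10 under the relaxed rule, 2 at a −log10 q of at least 5, 4 when peaks had to cover 50% of a region, 3 for KO1 alone and 6 for KO2 alone, and 1 to 3 with 1 library left out. Those lost numbered 3, but 15 under the relaxed rule, 7 for KO1 alone, 5 for KO2 alone and 1 without CDKN2A and CDKN2B, and 3 to 4 with 1 library left out. Regions gained in rescue numbered 0, but 5 under the relaxed rule, 1 at the stricter q, 3 with 150000 peaks per library, 1 at 50% cover, 1 against KO2 alone, 1 for Rescue1 and 3 for Rescue2, and 0 to 1 with 1 library left out. Those lost numbered 1, but 9 under the relaxed rule, 2 with 150000 peaks, 3 against KO2 alone, 2 for Rescue1 and 3 for Rescue2, and 1 to 2 with 1 library left out. Shares of all regions at the stricter q, with 150000 peaks, at 50% cover and with 1 library left out are not given. Those counts therefore cannot be set against all regions.

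The TERT exon number in KO minus WT, 2.83, passed the test as 4.67 when peaks had to cover 50% of an exon, 2.83 at the stricter q and 2.5 with 150000 peaks, and as 3.27 without KO1 replicate 1, within 2.17 to 3.27 for all libraries left out; that in rescue minus KO ran from -5.37 to -4.10. The TERT coding bases in KO minus WT, 913, no longer passed at 756 for KO1 alone, 1071 for KO2 alone and 913 with the replicate block, and ran from 761 to 1097 with 1 library left out, where without any 1 WT library the smallest possible p is 0.0714. In rescue minus KO they ran from -1362 to -1197. Of the start percentiles, 2 had a p under 0.05 between KO and WT, 1 when ranked by −log10 p, 1 in the narrower window, 0 with the block and 0 to 2 with 1 library left out, and 2 between rescue and KO, 0 in the narrower window, 1 with the block and 1 to 2 with 1 library left out. In the main setting, 18.4% and 30.8% of genes had such a p. Shares under the other settings are not given, so those start counts cannot be set against all genes.

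Replicate numbers did not pair the libraries, and 5 of 15 correlated best with their own number. Where not stated, the cause of a shift was not tested. The number of reads per library is unknown, so how far the calling threshold differed between libraries could not be measured.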
